A study of Mus musculus with 46 samples.

Results

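The genes described here are 10 transporters that move bile acids, bilirubin, drug conjugates or phospholipid into or out of hepatocytes. They were chosen by name, with earlier differences between the genotypes in these data known, and are 10 of the 21631 protein-coding genes of the RefSeq table for GRCm38. Histone acylation had been profiled by native ChIP-seq, in which chromatin is cut with micrococcal nuclease without crosslinking, in frozen liver of female mice aged 11 weeks on the FVB background and kept on standard chow. The PA mice, set against wild-type (WT) mice, are labelled as Pcca-/- hypomorphs with the variant A138T and model propionic acidemia. Pcca encodes a subunit of propionyl-CoA carboxylase, and a hypomorph keeps some of the enzyme's function. The labels do not say what drives expression of the variant or in which cells. Of the 46 samples, 8 were inputs and 38 had a list of enriched regions (peaks). The 36 libraries compared came from 9 antibodies with 2 WT and 2 PA libraries each. H3K9ac, H3K27ac, H4K16ac and H4K16bu (butyrylation) were profiled on liver preparations labelled A. H4K16pr (propionylation), H4K5ac, H4K5pr, H4K12ac and H4K12pr were profiled on preparations labelled B. Both genotypes therefore had 4 preparations. Nothing in the labels ties an A preparation to the B preparation with its number, so a pair may or may not be 1 liver, and p-values measure only the spread between libraries.

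Hepatocytes take up bile acids and organic anions from sinusoidal blood through NTCP and the OATP family, and secrete them with phospholipid across the canalicular membrane through ATP-driven pumps. A second group of pumps on the sinusoidal side returns conjugates to the blood and is known to be induced when bile flow is impaired. Acetylation and the longer acylations of histone tails mark promoters and enhancers of active genes. The uptake carriers examined were Slc10a1 (NTCP), Slco1a1 (OATP1A1), Slco1a4 (OATP1A4), Slco1b2 (OATP1B2) and Slco2b1 (OATP2B1). The canalicular pumps were Abcb11 (BSEP, the bile salt export pump), Abcb4 (MDR2, a phospholipid floppase) and Abcc2 (MRP2, which exports bilirubin glucuronides), and the sinusoidal pumps were Abcc3 (MRP3) and Abcc4 (MRP4). Each gene was measured over its body plus 2.5 kb on each side, as the share of this window covered by the peaks of a library. Values are per window length, and an order of levels between genes refers to that scale.

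The annotated starts of 4 of these genes are shown first, because they belong to the 3 genes whose preparations did not overlap and to Slc10a1, which had the largest mean difference above 0. Each sequence runs from 250 bases before to 50 bases after a RefSeq transcription start (GRCm38.p6) and is written 5′ to 3′ on the strand of the gene, which is the minus strand for all 4. Capitals mark matches, on either strand, to the nuclear receptor motif AGGTCA, the STAT5 motif TTCNNNGAA, the antioxidant response element core TGACNNNGC or TATAAA, and no 2 matches overlap. The windows are chr6:141946913-141947212 for Slco1a1, chr6:141856171-141856470 for Slco1a4, chr14:118706170-118706469 for Abcc4 and chr12:80968656-80968955 for Slc10a1.
Slco1a1: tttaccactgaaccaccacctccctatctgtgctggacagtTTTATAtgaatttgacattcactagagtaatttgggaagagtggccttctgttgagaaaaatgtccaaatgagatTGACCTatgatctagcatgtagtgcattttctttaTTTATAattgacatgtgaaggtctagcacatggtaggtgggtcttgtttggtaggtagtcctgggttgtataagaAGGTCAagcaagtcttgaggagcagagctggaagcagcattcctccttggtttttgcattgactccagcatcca
Slco1a4: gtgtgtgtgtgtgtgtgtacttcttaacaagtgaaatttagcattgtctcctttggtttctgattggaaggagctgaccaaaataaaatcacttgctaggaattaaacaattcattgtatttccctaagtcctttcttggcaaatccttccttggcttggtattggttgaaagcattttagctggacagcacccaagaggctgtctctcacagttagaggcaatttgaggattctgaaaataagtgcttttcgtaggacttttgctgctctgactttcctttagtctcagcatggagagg
Abcc4: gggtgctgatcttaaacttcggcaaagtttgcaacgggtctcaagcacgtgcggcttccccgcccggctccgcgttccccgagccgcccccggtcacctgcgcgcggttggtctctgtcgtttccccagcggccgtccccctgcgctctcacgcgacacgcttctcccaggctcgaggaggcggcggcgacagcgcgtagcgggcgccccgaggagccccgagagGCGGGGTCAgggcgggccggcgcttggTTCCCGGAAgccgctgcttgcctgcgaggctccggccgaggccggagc
Slc10a1: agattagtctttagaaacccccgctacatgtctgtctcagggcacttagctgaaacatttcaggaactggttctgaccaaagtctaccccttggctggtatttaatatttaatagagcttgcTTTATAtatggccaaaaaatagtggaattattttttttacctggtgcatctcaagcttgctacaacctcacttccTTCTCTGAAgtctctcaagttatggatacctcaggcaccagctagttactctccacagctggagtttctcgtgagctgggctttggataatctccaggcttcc
In the Slco1a1 promoter AGGTCA stood at base -24 from the start, and its reverse complement began at -134. Of 32619 promoters of the same length, 16.2% held AGGTCA, 8.34% TTCNNNGAA, 12.4% TGACNNNGC and 13.7% TATAAA. The Slco1a4 promoter held none of the 6 motifs searched, which also included GTTAAT (HNF1, in 7.1% of promoters) and TGTTTAC (forkhead, in 3.67%). The Abcc4 promoter had TGACNNNGC at -25 on the reverse strand and TTCNNNGAA at 2 bases into the transcript. The Slc10a1 promoter shown had TTCNNNGAA at -53 and TATAAA at -128 on the reverse strand. At a second annotated start of Slc10a1, 80968079, the promoter had AGGTCA at -87. Both Slc10a1 starts were covered in 18 WT and 18 PA libraries. A match describes the letters of the window and says nothing about binding in these livers.

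The peak lists differed in size between the genotypes, which touches each comparison below. Among the 16082 genes that held some peak coverage in 2 or more libraries, mean coverage was higher in PA for 85.5%, with a median difference of 1.74 percentage points and a median log2 ratio of 0.25. The files give positions only, so read depth is unknown, no counting interval can be given, and a position without a peak is one that was not listed, not one shown to be unmarked. The hepatocyte markers found in the table (9 of 10) had a median coverage of 60.7% in WT and 69.4% in PA. Of 6 cholangiocyte markers, Krt19, Krt7, Epcam and Cftr were at 0 in every library, whereas Sox9 was at 18.9% ± 1.92 in WT and 34.3% ± 4.98 in PA (SD, n = 4). The sixth, Spp1, was at 7.36% ± 5.19 in WT and 4.76% ± 2.52 in PA, with overlapping preparations. The summed level of the 6, made up of Sox9 and Spp1 alone, ran from 20.6 to 33.3 in WT and from 34.4 to 44.2 in PA. The 6 sinusoidal endothelial markers summed to between 105 and 156 in WT and between 140 and 170 in PA. The sums of the Kupffer cell, stellate cell and lymphocyte markers also overlapped between the genotypes. In whole liver, fewer cells of a type and less of a mark per cell cannot be told apart.

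Of the 10 transporters, Slco1a4 and Abcc4 had 4 PA preparations that all lay above the 4 WT preparations, and Slco1a1 had 4 that all lay below. The other 7 overlapped. Preparations A and B were averaged over different antibodies, so the SDs and overlaps also carry the difference between antibodies. Over all genes kept, 21% lay wholly above and 0.815% wholly below. Because the transporters were chosen with this contrast known, the counts are a description and no test is given. The median difference of the 10 was 2.09 points. When covered length was scaled to the same total in each library, the median difference over all genes became -0.209 points. Abcc4 was then the only one of the 10 wholly higher (5.8% of genes), while Slco1a1, Slco2b1 and Abcc2 were wholly lower (9.42% of genes). Statements of direction below use unscaled coverage. For the means over antibodies of the 10 genes, the exceptions under scaling are named with them. Genotype differences by single antibody, peak widths and the values of other genes are given unscaled only.

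**Figure D1:**
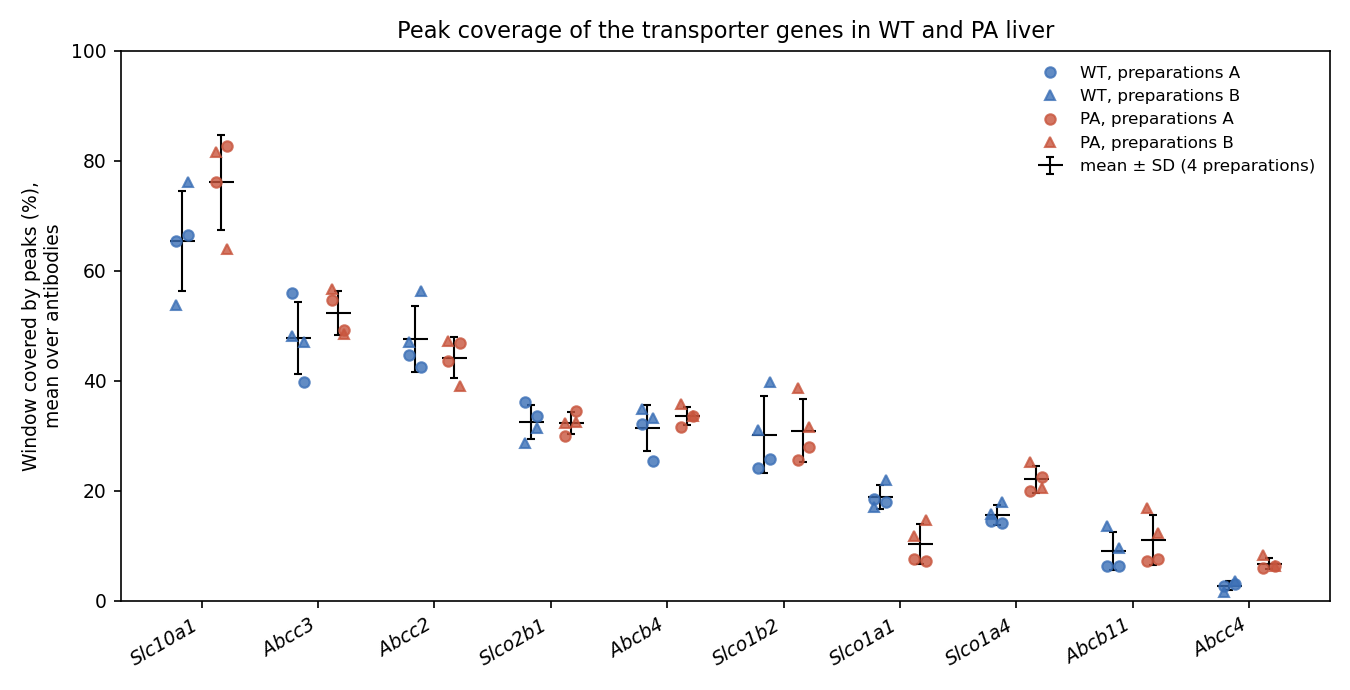
Share of each gene window covered by peaks (%, mean over the antibodies of a preparation) in WT and PA liver, with genes ordered by their WT mean. Circles are preparations A, triangles preparations B, and bars are the mean ± SD of 4 preparations. The PA points lie wholly below the WT points at Slco1a1 and wholly above them at Slco1a4 and Abcc4.

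In WT liver coverage was highest at Slc10a1 (65.5% ± 9.10, SD, n = 4 preparations) and lowest at Abcc4 (2.78% ± 0.807). Abcc3 (47.8% ± 6.61) and Abcc2 (47.6% ± 6.03) followed Slc10a1, and these 3 neighbours overlapped in their preparations. Slco2b1 (32.5% ± 3.12), Abcb4 (31.5% ± 4.14) and Slco1b2 (30.2% ± 6.99) formed a second group with overlapping preparations, and Slco2b1 lay wholly below Abcc2. Slco1a1 (18.9% ± 2.15) and Slco1a4 (15.6% ± 1.77) also overlapped, and both lay above Abcb11 (9.01% ± 3.46). In PA liver Slco1a1 moved from rank 7 to rank 9 of the 10, where it overlapped both Abcb11 and Abcc4. Slco1a4 moved from rank 8 to rank 7. In covered length, which grows with the window, the order in WT was another one, with Slc10a1 at 13.4 kb below Abcc2 at 29.1 kb, Abcc3 at 26.1 kb, Abcb4 at 22.2 kb, Slco2b1 and Slco1b2.

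Slco1a1 (chr6:141907281-141946962, minus strand) encodes an organic anion carrier that in mice is known to be more strongly expressed in male than in female liver. Its coverage in WT was 18.6% and 18.1% in preparations 1A and 2A and 17% and 22% in 1B and 2B. In PA it was 7.52% and 7.30% in 1A and 2A and 11.9% and 14.7% in 1B and 2B. The mean was 10.4% ± 3.60 against 18.9% ± 2.15, a difference of -8.55 points, and 0.348% of all genes kept had a smaller (more negative) difference. The difference was negative in each of the 20 alternatives run, scaling included, from -49.2 to -6.21 points. The PA mean was lower with 9 of 9 antibodies, and both PA libraries were below both WT libraries with 7, a pattern that between 0.878% and 13.6% of genes showed with a given antibody.

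The antibodies differed in how much of the whole Slco1a1 window they covered in PA. With H3K9ac, 7306 and 5367 bp were covered in the WT libraries and 1000 and 937 bp in the PA libraries. With H4K16bu the WT libraries had 8349 and 9507 bp and the PA libraries 3233 and 2684 bp. With H4K16pr they had 6675 and 7675 bp in WT against 1453 and 3162 bp in PA. With H4K12pr, where the difference was smallest, they had 7876 and 8747 bp in WT against 7511 and 6913 bp in PA. The libraries overlapped with H4K5ac (8267 and 13157 bp against 4309 and 9825 bp) and with H4K12ac (8054 and 11610 bp against 8560 and 6727 bp). These lengths count the whole window, and the peak over the start alone was narrower in PA with these antibodies too. For H4K12pr it measured 6365 and 7233 bp in WT and 2587 and 2840 bp in PA. For H4K12ac the widths were 7098 and 6558 bp against 2528 and 2746 bp, and for H4K5ac 7064 and 10569 bp against 2676 and 2849 bp.

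The lower coverage of Slco1a1 lay at the 5′ part of the gene. A stretch of 3099 bp, from 604 to 3702 bases into the gene (chr6:141943260-141946358), was covered in at least 12 more WT than PA libraries throughout. Within it 317 bases had a peak in all 18 WT libraries and in 0 of the 18 PA libraries. Among all genes kept, 0.0995% had any such base. The start itself was covered in 18 WT and 15 PA libraries, the exceptions being H3K9ac in PA 1A and 2A and H4K16pr in PA 1B. A difference of at least 3 libraries in this direction was found at 1.65% of 32580 annotated starts. The limits of 12 and of 3 libraries were set after these values had been seen.

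The peak over the Slco1a1 start had a width of 6834 ± 916 bp in WT livers and of 2109 ± 431 bp in PA livers (SD, n = 4 preparations; libraries without a peak at the start count as 0). It reached 4389 ± 827 bp into the gene in WT and 476 ± 176 bp in PA, whereas upstream it reached 2444 ± 165 bp in WT livers and 1632 ± 273 bp in PA livers. The groups did not overlap in width or in either reach. Further into the gene, from about 6 kb, the numbers of WT and PA libraries with a peak were close to each other at most places. An exception lay past the far end of the gene (chr6:141905024-141906266), with peaks in 1 WT and 7 PA libraries. When the peaks of the 36 libraries were merged, the window held 13 regions. Of these, 4 had peaks in PA libraries only and 3 in WT libraries only. Over all 16897 starts covered in at least 2 libraries, the PA preparations were wholly wider at 12.1% and wholly narrower at 0.556%, and the median widths were 2270 bp (WT) and 2738 bp (PA). Slco1a1 and its neighbours Slco1a4, Slco1a5 and Slco1a6 are related in sequence, so reads may have been divided among them.

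**Figure D2:**
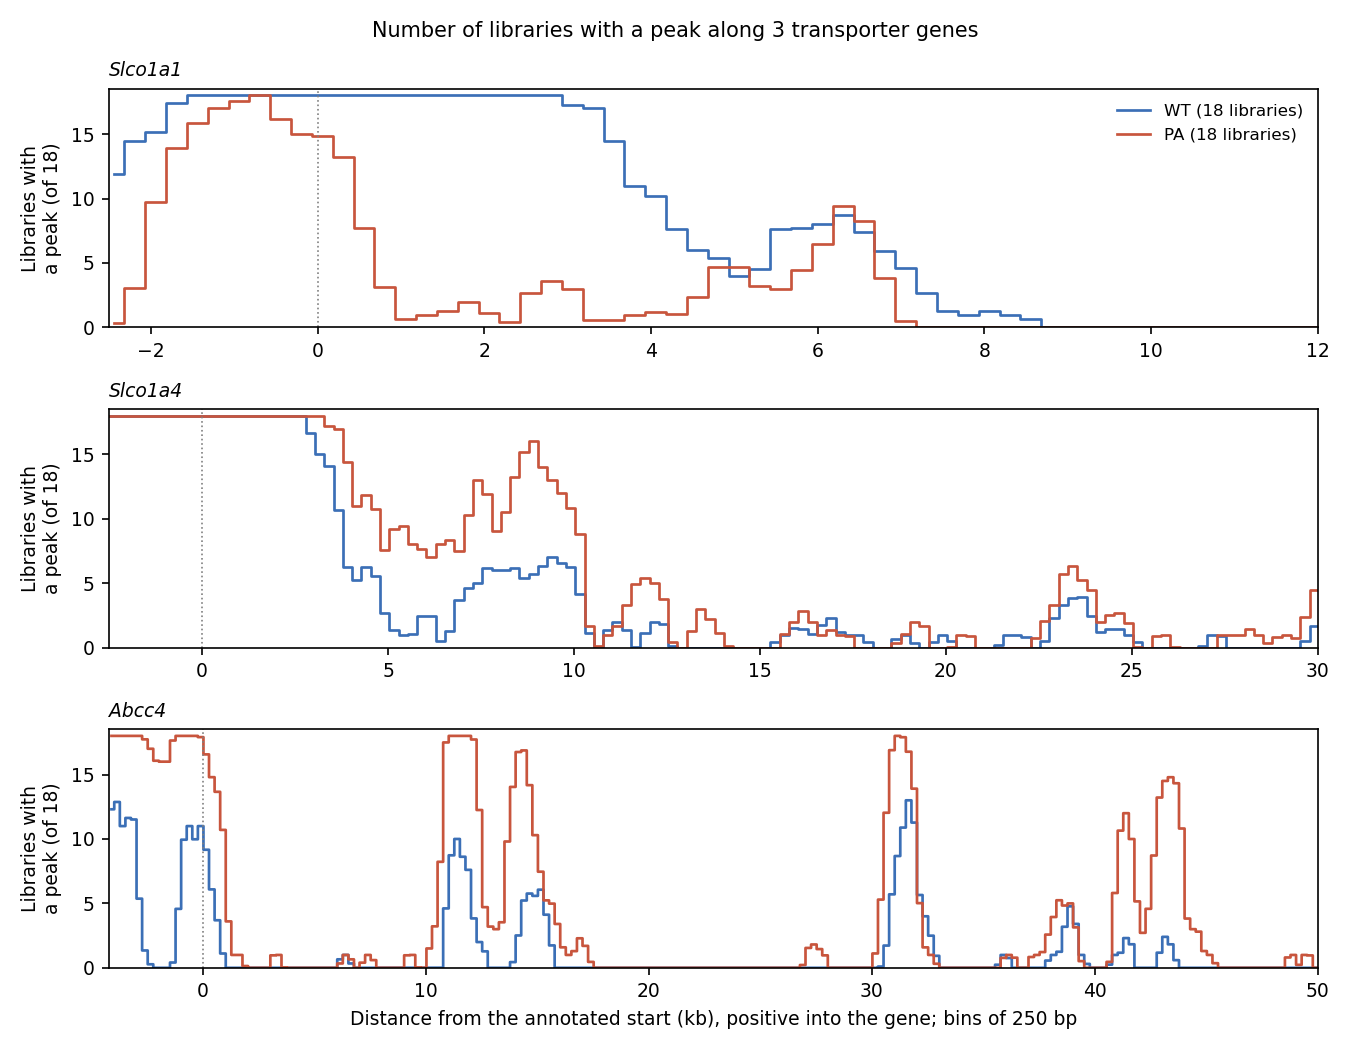
Number of libraries with a peak (mean per bin of 250 bp, of 18 WT and 18 PA libraries) against distance from the annotated start in kb, positive into the gene, for Slco1a1, Slco1a4 and Abcc4. The PA line falls away within 1 kb of the Slco1a1 start while the WT line stays at 18, both lines stay at 18 around the Slco1a4 start, and the PA line exceeds the WT line upstream of Abcc4 and at several places inside it.

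Slco1a4 (chr6:141805438-141856284, minus strand), a carrier of bile salts and drugs that is also found at the blood-brain barrier, lies beside Slco1a1 and had the opposite sign. Coverage in WT was 14.5%, 14.1%, 15.9% and 18% in 1A, 2A, 1B and 2B. In PA it was 20.0%, 22.5%, 25.3% and 20.5% in the same order. The mean was 22.1% ± 2.38 against 15.6% ± 1.77, and both PA libraries were above both WT libraries with 9 of 9 antibodies. By antibody that pattern was found at between 29.9% and 67.2% of genes. The difference of 6.45 points exceeded that of 85% of genes kept. It became 2.03 points when scaled to covered length and 2.48 points after quantile normalization, and the preparations overlapped under both.

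The 5 kb centred on the start of Slco1a4 were covered in full in each of the 36 libraries, so this window could show no difference. The added coverage lay further downstream. The peak at the start reached 5754 ± 1763 bp into the gene in PA and 3834 ± 467 bp in WT, with overlapping preparations. In preparations A this reach was 6503 and 7855 bp in PA against 3375 and 3886 bp in WT. In preparations B it was 4706 and 3950 bp against 3615 and 4462 bp, with overlap. Of 24 merged regions in the window, 11 had peaks in PA libraries only and 5 in WT libraries only, and 13 had a peak in 1 library. The plot by distance also shows more PA than WT libraries between 7 and 10 kb into the gene. No stretch of Slco1a4 differed by 12 or more libraries.

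Abcc4 (chr14:118482692-118707856, minus strand) encodes a sinusoidal pump for bile acid conjugates and cyclic nucleotides. Coverage in WT was 2.78%, 3.07%, 1.68% and 3.59% of the window in 1A, 2A, 1B and 2B. In PA it was 6.01%, 6.43%, 8.28% and 6.26%. In length this was 6.40 ± 1.86 kb in WT and 15.5 ± 2.38 kb in PA, a ratio of 2.43, the highest of the 10 genes. In share of the window the difference was 3.97 points, which exceeded that of 72.0% of genes kept. The PA preparations were wholly above the WT preparations in the main setting and in each of the 20 alternatives, scaling included. Both PA libraries were above both WT libraries with 9 of 9 antibodies. With H4K16ac the WT libraries had 0 and 500 bp and the PA libraries 9964 and 11287 bp. With H4K16pr they had 792 and 8387 bp against 14601 and 13212 bp, and with H4K5ac 4924 and 6507 bp against 24008 and 17472 bp. The smallest difference was with H3K9ac, 10046 and 11040 bp against 17335 and 13642 bp.

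The longest of 8 stretches of Abcc4 with at least 12 more PA than WT libraries, which held 4517 bp in all, lay upstream of its start, and the other 7 lay inside the gene. This stretch of 1806 bp (chr14:118707294-118709099), between -1075 and -2880 bases from the start, spans the outer end of the RefSeq gene record. Within it 99 bases had a peak in 0 WT and all 18 PA libraries, and 0.249% of genes kept had any such base. The start was covered in 11 WT and 18 PA libraries, and the WT libraries without a peak there were both H4K16ac, both H4K5ac, H4K16bu 1A, H4K16pr 1B and H4K12pr 1B. A difference of at least 7 libraries in this direction, a limit set after seeing the values, was found at 1.37% of starts. The peak over the start measured 898 ± 442 bp in WT livers and 8283 ± 1721 bp in PA livers, and 7406 ± 1432 bp of the PA width lay upstream. Inside the gene, a stretch of 1176 bp from 42765 to 43940 bases into it had peaks in 0 WT and 14 PA libraries where they differed most, and shorter stretches of this kind lay between 10732 and 14460 and between 30673 and 31051 bases into it. The merged region with the largest difference in libraries (chr14:118660852-118665529) had peaks in 6 WT and 17 PA libraries. A second annotated start, at 118676931, was covered in none of the 36 libraries.

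Abcc4 lies 3.78 Mb from Pcca on chromosome 14. Of the 24 genes kept within 5 Mb of Pcca, 16.7% were wholly higher and 8.33% wholly lower in PA, against 21% and 0.815% of all genes kept. The part of the position of Abcc4 in its values was not tested. The cholangiocyte marker Sox9 was also higher in PA, as given above, Spp1 had the lower mean in PA with overlap, and Krt19, Krt7, Epcam and Cftr had no peak in any library.

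Slc10a1 (chr12:80953185-80968705, minus strand), the main sodium-dependent bile acid carrier of hepatocytes, had the largest mean difference above 0 in coverage, 76.1% ± 8.64 in PA against 65.5% ± 9.10 in WT, with overlapping preparations. The WT values were 65.5%, 66.6%, 53.9% and 76.1% in 1A, 2A, 1B and 2B, and the PA values 76.1%, 82.7%, 81.7% and 63.9%. Scaled to covered length the difference was -1.72 points. The peak over its 2 annotated starts measured 12460 ± 2031 bp in WT livers and 19050 ± 3550 bp in PA livers, and these widths did not overlap. By antibody the difference was 26.7 points with H4K16ac and 25.1 points with H4K16pr, and it was below 0 with H4K12ac alone, -5.47 points (78.2% in WT and 72.7% in PA, with overlap). With H3K9ac and H3K27ac the window was close to fully covered in both genotypes, at 89.9% and 91.9% in WT and 95.3% and 98.3% in PA.

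The other uptake carriers had unscaled means that differed by less than the spread between preparations. Slco1b2 (chr6:141629452-141686646, plus strand), a liver-specific carrier of conjugated bilirubin and statins, was covered over 30.2% ± 6.99 in WT and 30.9% ± 5.72 in PA. Its 2 PA libraries were wholly higher with H4K16ac alone, at 20.7% and 21% against 14.1% and 14.7%. Scaled to covered length the Slco1b2 difference was -5.56 points, with overlap. Slco2b1 (chr7:99657804-99711340, minus strand) was at 32.5% ± 3.12 in WT and 32.3% ± 1.92 in PA. Its PA preparations were wholly below those of WT after scaling to covered length (-5.98 points) and after quantile normalization (-4.54 points, with 7.43% of genes wholly lower). It has 3 annotated starts, of which that at 99695809 had a peak in all 36 libraries, that at 99706842 in 8 WT and 8 PA libraries, and that at 99711340 in 2 PA libraries alone. The peak over 99695809 measured 7472 ± 989 bp in WT and 8444 ± 949 bp in PA. Covered length over the whole window was 19.0 ± 1.83 kb and 18.9 ± 1.12 kb, so most of it lay elsewhere. A region further into the gene (chr7:99678145-99683741) also had peaks in 18 WT and 18 PA libraries.

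At the canalicular pumps the 4 preparations of the genotypes overlapped. Abcb11 (chr2:69238282-69342616, minus strand) was at 9.01% ± 3.46 in WT and 11.0% ± 4.55 in PA. In 1A, 2A, 1B and 2B its WT values were 6.38%, 6.38%, 13.7% and 9.60%, and its PA values 7.26%, 7.56%, 16.9% and 12.4%. Within preparations A both PA values lay above both WT values, as for 54.6% of genes kept, and within B they overlapped. Around its start (2.5 kb on each side, a window added after seeing the data) coverage was 75.5% ± 4.25 in WT and 84.6% ± 1.09 in PA, with no overlap. In that window 1610 of the genes kept were wholly higher. Abcb4 (chr5:8893614-8959226, plus strand) was at 31.5% ± 4.14 and 33.6% ± 1.65. Scaled to covered length the difference was -0.15 points at Abcb11 and -4.58 points at Abcb4, both with overlap. Abcc2 (chr19:43782308-43838332, plus strand) was at 47.6% ± 6.03 in WT and 44.2% ± 3.80 in PA. Its WT values were 44.8%, 42.5%, 47.1% and 56.2% in 1A, 2A, 1B and 2B, and its PA values 43.7%, 46.8%, 47.3% and 39.1%. Scaling to covered length made the Abcc2 difference -11.5 points, with no overlap. The PA minus WT difference was most negative with H4K12ac (-27.4 points), where Abcc2 was covered over 52.9% and 70.6% in WT and 40.4% and 28.3% in PA. The starts of Abcb11, Abcb4 and Abcc2 were covered in all 36 libraries, as were 19.6% of all annotated starts.

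Abcc3 (chr11:94343295-94393017), the sinusoidal pump for glucuronides, was at 47.8% ± 6.61 in WT and 52.3% ± 4.03 in PA. The WT values were 56.0%, 39.8%, 48.2% and 47.0%, and the PA values 54.7%, 49.2%, 56.7% and 48.6%, in 1A, 2A, 1B and 2B. The difference became -5.60 points when scaled to covered length and -1.93 points after quantile normalization, with overlap. With H4K16ac it was covered over 39.8% and 17.1% in WT and 52.5% and 42.9% in PA. The lower WT value came from the library with the fewest peaks of the 36, 32358. Its window includes 1053 bp of the neighbouring gene Ankrd40, the only other protein-coding gene in any of the 10 windows.

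**Figure D3:**
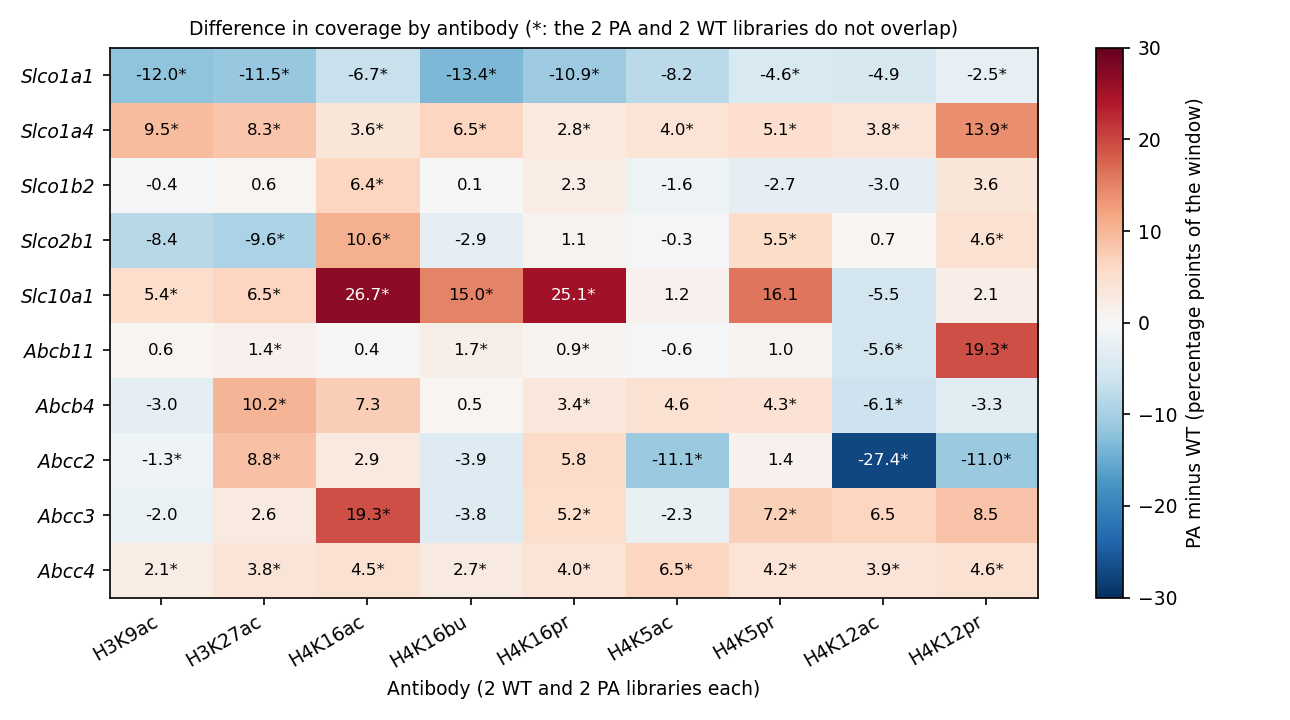
Difference in coverage between PA and WT (percentage points of the window, mean of 2 PA minus mean of 2 WT libraries) for each gene and antibody, with an asterisk where the 2 PA and 2 WT libraries do not overlap. Slco1a1 is below 0 and Slco1a4 and Abcc4 above 0 in all 9 columns, while Slco2b1, Abcb11, Abcb4 and Abcc2 have asterisks of both signs.

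Across the 90 combinations of gene and antibody, both PA libraries were above both WT libraries in 38 and below in 14. With H4K16ac 6 of the 10 genes were wholly higher and 1 wholly lower, where 67.2% and 0.878% of all genes were. With H3K27ac the counts were 6 and 2, against 39.7% and 7.58% of all genes. With H4K16pr they were 6 and 1, against 48.0% and 2.71%. With H4K12ac they were 2 and 3, against 36.1% and 7.88%. With H4K5pr they were 5 and 1 (57.5% and 3.71%), with H4K16bu 4 and 1 (37.5% and 9.23%), with H4K12pr 4 and 2 (31.4% and 7.49%), with H3K9ac 3 and 2 (29.9% and 13.6%) and with H4K5ac 2 and 1 (41.6% and 6.28%). The 3 lower with H4K12ac were the canalicular pumps Abcb11, Abcb4 and Abcc2, named after their values were seen.

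The second question was whether the marks cover the transporters to different extents. These contrasts between antibodies had not named the genes, so they were tested in limma over all genes kept, with genotype as a term and Benjamini-Hochberg adjustment. With the propionyl mark H4K12pr, 9 of the 10 genes had a higher mean than with H4K12ac. The median difference was 7.52 points for the 10 and 0.0247 points for all genes tested. The share of all genes with a higher mean was not computed. Abcc2 was covered over 74.9% with H4K12pr and 48.1% with H4K12ac, a difference of 26.9 ± 6.09 points (SE, n = 4 libraries each; limma adjusted p = 0.208). Abcb11 was at 34.3% and 14.5% (adjusted p = 0.295) and Slco1b2 at 55.9% and 39.0% (adjusted p = 0.328). None of the 10 and 0.0% of 15179 genes passed in limma in either direction, although 1757 genes had an unadjusted p under 0.05. The 4 libraries of an antibody include both genotypes, and the Abcb11 values with H4K12pr were 30.2% and 19.1% in WT and 51.1% and 36.8% in PA.

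With H4K5pr against H4K5ac, 0.546% of 15015 genes were called higher and 0.173% lower, and none of the 10. Without WT replicate 1B no gene was called, without WT replicate 2B 2 higher and 1 lower, without PA replicate 1B 21 and 2, and without PA replicate 2B 5 and 1. Slco1b2 was at 32.6% with H4K5pr and 24.2% with H4K5ac (8.40 ± 2.07 points, adjusted p = 0.113), Abcc2 at 49.9% and 34.2% (adjusted p = 0.124) and Slc10a1 at 74.7% and 51.4% (adjusted p = 0.238). With preparation as a block, 19 genes were higher and 0 lower. The split of 82 higher and 26 lower became 377 and 26 when scaled to covered length, where 2 of the 10 genes were called, and 125 and 14 with equal numbers of peaks. With H4K16bu against H4K16ac, 0.331% of 14213 genes were higher and 0.00704% lower, and again none of the 10. Abcc2 was at 39.3% with H4K16bu and 19.4% with H4K16ac (19.8 ± 4.39 points, adjusted p = 0.108). With preparation as a block, or without WT replicate 1A, WT replicate 2A or PA replicate 2A, no gene was called in that contrast, and without PA replicate 1A 474 were higher and 4 lower. The split of 47 and 1 became 42 and 6 after quantile normalization.

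With H3K27ac against H3K9ac, 4 transporters were called higher and none lower, where 17.6% of 15621 genes were higher and 9.52% lower. Slco1a1 was covered over 18.3% with H3K27ac and 8.17% with H3K9ac (10.1 ± 1.40 points, SE, limma adjusted p = 0.00363). Slco1a4 was at 24.6% and 17.0% (7.62 ± 1.47 points, adjusted p = 0.0110), Abcb11 at 11.2% and 7.67% (3.55 ± 0.603 points, adjusted p = 0.00721) and Abcc3 at 66.5% and 49.1% (17.4 ± 5.03 points, adjusted p = 0.0426). At Slco1a1 the 2 PA libraries were at 11.3% and 13.7% with H3K27ac and at 2.24% and 2.10% with H3K9ac. The H3K27ac lists covered 138 to 165 Mb of the genome and the H3K9ac lists 111 to 120 Mb. Scaled to covered length, 942 of all genes were higher and 6154 lower, Slco1a1 was the 1 transporter called higher (adjusted p = 0.00558), and Slc10a1, Slco2b1 and Abcc2 were the 3 called lower. Slco1a1 passed in each alternative run. Slco1a4 did not pass without WT replicate 1A (adjusted p = 0.0628), WT replicate 2A (0.0758) or PA replicate 1A (0.0562), nor after quantile normalization (0.057), nor with gene ends, where its difference was 0 points. Abcb11 did not pass without WT replicate 2A (0.0528), nor did Abcc3 without WT replicate 2A (0.0793), PA replicate 1A (0.118) or PA replicate 2A (0.122). Abcc3 also did not pass with no flank (0.0627), with gene ends (0.21), after quantile normalization (0.103), with no filter (0.0791) or without the trend (0.0547). Scaled to covered length the adjusted p was 0.432 at Slco1a4, 0.196 at Abcb11 and 0.768 at Abcc3.

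**Figure D4:**
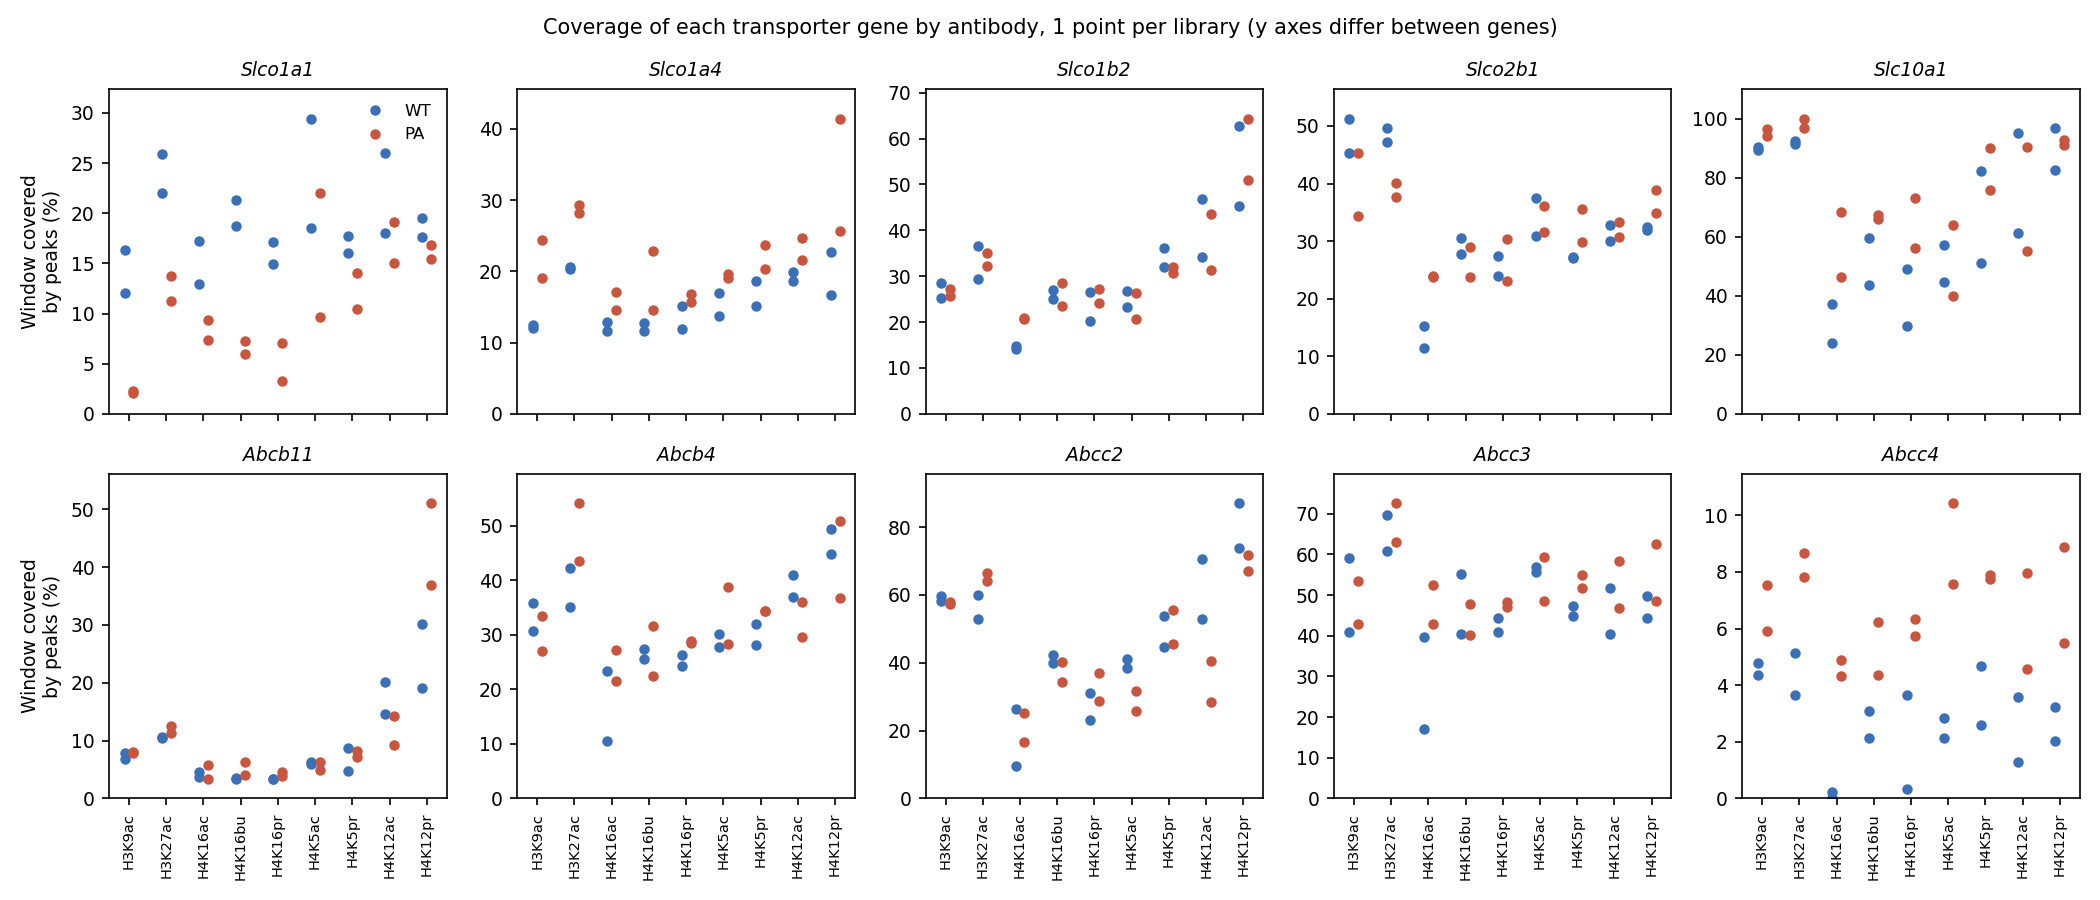
Share of the window covered by peaks (%) in each of the 36 libraries, by gene and antibody, with WT in blue and PA in red and y axes that differ between genes. At Slco1a1 the 2 PA points with H3K9ac lie at 2.24% and 2.10%, and at Abcb11 the H4K12pr points lie above those of every other antibody in PA.

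Other genes with a pattern across libraries like that of a transporter were named by the highest Pearson correlation over the 36 libraries, each taken relative to the mean of its antibody. The libraries share their depth and preparation across genes, and the genotype difference was left in, so these values are descriptions. For a transporter that differs between the genotypes, the choice favours genes with a difference of the same sign. For Slco1a1, which had the most negative mean difference, they were Mup-ps16 (r = 0.855) and Mup19 (r = 0.843) of the major urinary protein cluster, Cmah (r = 0.846), which encodes a sialic acid hydroxylase, the RNA methyltransferase gene Nsun2 (r = 0.816) and Dntt (r = 0.803), which encodes terminal transferase. Their coverage was lower in PA, which the choice itself favours, with Mup19 at 9.88% against 34.5% and Cmah at 16% against 37.8%. The Mup genes are near-identical copies, among which reads may be divided. For Slc10a1, which had the largest positive mean difference, they were Khk (ketohexokinase, r = 0.878), Pgm3 (r = 0.848), Surf4 (r = 0.836), Med20 (r = 0.833) and Isg20l2 (r = 0.83). For Abcc4, added after its values were seen, they were Esrrg (an orphan nuclear receptor, r = 0.960), Plcb1 (r = 0.951), Pde4d (r = 0.949), Kmt5a (r = 0.948) and Slc16a7 (r = 0.946). Slco1a1 and Abcc4 had r = -0.634 with each other, and Slco1a4 and Abcc4 r = 0.743. Both values include the genotype differences already given for these genes.

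Of 22 other transporters, 20 were kept, of which 8 were wholly higher and 1 wholly lower in PA (21% and 0.815% of all genes). Their median difference was 2.09 points. Values of these transporters and of the regulators below are unscaled, and whether they hold under scaling is not shown. Slc51b, the beta subunit of the sinusoidal bile acid exporter OST, was at 9.49% ± 2.58 in WT and 20.5% ± 2.41 in PA, while its partner Slc51a had a covered base in too few libraries to be kept. Slc10a5 was at 76.1% ± 5.41 and 86.1% ± 1.92, and the efflux pump Abcg2 at 6.19% ± 2.04 and 13% ± 1.91. Slc10a2, the apical sodium-dependent bile acid transporter known from ileum and cholangiocytes, was at 40.4% ± 2.34 in WT and 21.1% ± 9.42 in PA. Of 17 regulators of these transporters, 3 were wholly higher and none lower, with a median difference of 3.5 points. Nr0b2 (SHP, a repressor of bile acid synthesis induced by the bile acid receptor FXR) was at 75.6% ± 3.10 and 86.9% ± 4.58, Ahr (the dioxin receptor) at 34.0% ± 3.89 and 42.4% ± 1.98, and Klb (a co-receptor for FGF15) at 26.4% ± 0.549 and 32.4% ± 0.704. The FXR gene Nr1h4 (54.3% ± 8.34 and 57.8% ± 3.88) and Hnf4a (47.6% ± 3.5 and 52.7% ± 2.46) overlapped between genotypes.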

How the data were processed

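ChIP-seq peak lists of 38 mouse liver libraries were used, and the 8 inputs, which have no peak list here, were not. Each deposited list gives the chromosome, start and end of regions in base pairs on GRCm38 (mm10), per the file contents, with no score, count or read depth, and no region is shorter than 500 bp. The submitters' processing notes name HOMER 4.10, Bowtie2 2.5.1, cutadapt 3.5, bedtools 2.31.0, R 4.1.2 and SAMtools 1.17. The role and settings of each tool, and whether inputs were used, are not stated there. Lists differ in length, so coverage moves with how much was called in a library.

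Groups came from the labels. Regions were merged within a library, and covered bases were counted in each RefSeq gene body (GRCm38.p6) plus 2.5 kb on each side, divided by window length, and averaged over antibodies within a preparation. Genes with coverage in 2 or more libraries were kept. The genes, lists and windows were chosen with earlier results of these data known. The genotype contrast is therefore given as values and overlap. For antibody contrasts limma 3.58.1 (R 4.3.3) was run with the trend option on antibody and genotype, at an adjusted p under 0.05, after a test on simulated data. The 2 antibodies of a contrast share an input label, so libraries of the same preparation are pairs. Their deviations correlated across genes with r between 0.196 and 0.466, except H4K16bu and H4K16ac in PA (-0.151). Named genes were all 10, the 5 most alike in pattern for the largest positive and negative mean differences, and up to 4 of each list by size of difference among those without overlap. The genes like Abcc4, and Nr1h4 and Hnf4a, were named after their values were seen. Promoters and starts came from RefSeq, where 9 of the 10 genes had an entry and Abcc3 had none. Alternatives covered windows, scaling, peak number, antibodies, filter, trend, replicate block and leaving out replicates. Python 3.11.15, numpy 2.4.6, pandas 2.3.3 and matplotlib 3.10.9 were used.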

Additional observations from a re-analysis of the deposited data

Results flagged for a closer look

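In 4 genes 1 antibody had both PA libraries above both WT libraries while another had both below. The share of all genes with both signs was not computed, and the difference between the antibodies was not tested. The antibodies of each pair had separate libraries, and in 2 of the 4 pairs also separate preparations.

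Slco2b1 differed by 10.6 percentage points (PA minus WT) with H4K16ac and by -9.59 points with H3K27ac. Abcb11 differed by 19.3 points with H4K12pr and by -5.59 points with H4K12ac. Abcb4 differed by 10.2 points with H3K27ac and by -6.14 points with H4K12ac. Abcc2 differed by 8.81 points with H3K27ac and by -27.4 points with H4K12ac. Of all genes, 67.2% were wholly higher with H4K16ac, 31.4% with H4K12pr and 39.7% with H3K27ac. Wholly lower were 7.58% with H3K27ac and 7.88% with H4K12ac. The H4K16ac lists covered 74.8 and 47.8 Mb in WT and 116 and 105 Mb in PA. No preparation stood apart from the other 3 of its genotype in any of the 20 sets of values of a gene and genotype tested with Dixon's criterion.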

How the results depend on the processing

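The direction of the difference at Slco1a1 and Abcc4 was the same in all 20 alternatives. The number of transporters wholly higher in PA was 2 in the main setting (21% of genes kept). It was 1 (Abcc4) with gene ends (14.2% of genes), scaling to covered length (5.8%), quantile normalization (5.52%) and the median over antibodies (17.8%). It was 4 with the antibodies of preparation A alone (54.6% of genes wholly higher), 4 with those of preparation B alone (47.6%) and 4 with A and B averaged. It was 3 without WT replicate 1A (26.0% of genes), where Abcc3 was added, and 3 without PA replicate 2B (32.1%), where Slc10a1 was added. The number wholly lower was 1 in the main setting (0.815% of genes). It was 3 with scaling to covered length (9.42%), 3 with quantile normalization (7.43%) and 2 with A and B averaged (5.2%). Averaging leaves 2 against 2 values, where 61.7% of genes were wholly higher.

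For H4K5pr against H4K5ac, 82 genes were higher and 26 lower. The counts higher and lower were 34 and 4 with no flank, 19 and 8 with gene ends, 125 and 14 with equal numbers of peaks, and 32 and 14 with no filter. Scaling to covered length gave 377 higher, with 2 of the transporters, and the fit without the trend 80 lower. Leaving out a replicate gave 0 to 21 higher and 0 to 2 lower. For H4K12pr against H4K12ac, with 0 and 0, the counts were 2 and 2 with a flank of 5 kb, 12 and 2 with scaling, 2 and 1 with quantile normalization, and 0 higher with 1 lower at equal numbers of peaks and 2 lower with no filter.

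For H4K16bu against H4K16ac, with 47 and 1, the counts were 112 and 2 with gene ends, 17 and 2 with scaling, 168 and 0 with equal numbers of peaks, 5 and 0 with no filter, and 0 and 0 without the trend. The count lower was 0 with no flank and with a flank of 5 kb, and 6 with quantile normalization. Leaving out a replicate gave 0 to 474 higher and 0 to 4 lower. For H3K27ac against H3K9ac, with 2751 and 1487, gene ends gave 804 higher, scaling 942 higher and 6154 lower, and leaving out a replicate 1310 to 2231 higher and 875 to 970 lower. Of the transporters, 4 in the main setting, 7 were higher with a flank of 5 kb, 2 with quantile normalization, 1 higher and 3 lower with scaling, and 1 to 4 higher when a replicate was left out. The cause of these changes was not tested.

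With the preparation as a replicate block, the calls were 19 higher and 0 lower for H4K5, 0 and 0 for H4K12, 0 and 0 for H4K16 and 2633 and 1331 for H3K27ac against H3K9ac. No transporter gained or lost a call under it. Depth is unknown, the libraries per antibody are 2 per genotype, and coverage saturates where a window is fully covered, as at Slc10a1 with H3K27ac. Signal below the threshold of peak calling is not in the lists.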

Other observations

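An in-house H4K16pr antibody was used on WT preparations 1B and 2B only, with 36465 and 16368 peaks, and entered no comparison. Its peaks covered 4913 and 4855 bp of the Slco1a4 window and 4151 and 3354 bp of Slc10a1. Slco1a1 had 6399 and 500 bp, Abcc2 7656 and 500 bp, and Abcc3 11097 and 2586 bp. Abcb11 had 1211 and 0 bp, and Abcc4 640 and 0 bp.

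H3K9ac peaks were missing at some starts that the other antibodies covered. Of 7059 annotated starts covered in all 32 libraries of the other antibodies, 35 had no H3K9ac peak in any of its 4 libraries, and the same count for the other antibodies was between 0 and 5. No transporter start was among them.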
